A study of Mus musculus with 6 samples.

Results

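The 4 MiT factors, Mitf, Tfeb, Tfec and Tfe3, and PU.1, the product of Spi1, were followed in bone marrow-derived macrophages (BMMs) of mouse on their way to osteoclasts. They were taken by gene symbol as 5 of the 24940 genes in the deposited expression table. In all, 6 RNA-seq libraries were available, 2 for each of 3 conditions. M-CSF at 30 ng/mL was present in all cultures for the 3 days. The -R cultures received nothing else, the +R cultures also received RANKL at 100 ng/mL, and the R+LE cultures received the same RANKL together with LE at 10 μg/mL. LE is a methanol extract of the leaves of Abeliophyllum distichum, so it is a mixture and not a single compound, and LE was not given without RANKL. The labels describe C57BL/6 mice of 6 to 8 weeks and 48-well plates, whereas the methods of the study describe ICR mice of 6 to 7 weeks and 6-well plates. BMMs are adherent primary cells grown from marrow with M-CSF, and in such bulk samples fewer cells of a type and less RNA per cell cannot be told apart.

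MITF, TFEB, TFEC and TFE3 are transcription factors with a basic region, a helix-loop-helix and a leucine zipper. They bind DNA as dimers, of 1 kind or mixed within the family, at E-box and M-box sequences. PU.1 is an ETS factor without which neither macrophages nor osteoclasts form, and MITF and PU.1 act together on genes of the mature osteoclast such as Acp5, Ctsk and Oscar. In mice, MITF and TFE3 overlap in osteoclast formation, TFEB and TFE3 drive lysosome genes and are held in the cytoplasm when mTORC1 phosphorylates them, and TFEC is found mainly in cells of the macrophage lineage.

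The coding sequences of the 4 MiT factors are most alike in the part that encodes the helix-loop-helix, through which the dimers form. The most alike stretch of 75 nt is printed to show how close the members are at the level of the reads, with capitals at the 56 positions where all 4 transcripts hold the same base. It spans 2 exons in each gene and is cut from the mm10 transcript, at chr6:98010448-98013720 on the plus strand for Mitf, chrX:7771048-7772500 on the plus strand for Tfe3, chr17:47788962-47789712 on the plus strand for Tfeb and chr6:16835298-16840491 on the minus strand for Tfec.
Mitf: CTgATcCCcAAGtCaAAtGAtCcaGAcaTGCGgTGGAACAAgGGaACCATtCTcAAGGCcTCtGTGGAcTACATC
Tfe3: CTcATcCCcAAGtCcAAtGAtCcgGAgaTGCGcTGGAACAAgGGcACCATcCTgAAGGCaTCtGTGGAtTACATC
Tfeb: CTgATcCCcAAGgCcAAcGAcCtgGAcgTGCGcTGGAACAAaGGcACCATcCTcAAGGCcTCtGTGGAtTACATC
Tfec: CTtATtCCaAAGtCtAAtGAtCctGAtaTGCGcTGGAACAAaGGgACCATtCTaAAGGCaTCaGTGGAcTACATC
Over this stretch Tfe3 shared 65 bases with Mitf (86.7%), and Tfeb and Tfec shared 63 each (84%). The longest run of identical bases between any of the member transcripts was 29 nt, between Tfeb and Tfe3, against reads of 100 bp. No exon of the GENCODE transcripts matched to the 5 counted ones overlapped an exon of another gene. For Spi1 the matched transcript is 2034 nt long, against 1448 nt for the counted one. The authors counted reads on 1 transcript of each gene, whereas the GENCODE annotation of mm10 lists 8 transcripts of Mitf with 7 different first bases, 15 of Tfeb, 14 of Tfe3, 5 of Tfec and 4 of Spi1. Exons held only by other transcripts, such as the alternative first exons for which Mitf is known, are therefore not counted in the values that follow, and isoforms that share the counted exons are not told apart.

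Levels are given as RPKM, reads scaled to transcript length and to the mapped reads of the library, which allows levels of different genes to be compared. Differences were tested with limma on log2(RPKM + 0.5) over the 11595 genes whose mean reached 0.5 RPKM, and log2 fold changes are on that scale. A gene is said to rise or fall at a Benjamini-Hochberg adjusted p-value below 0.05. All 5 members passed the filter on low values. The libraries held between 29391234 and 34847168 mapped reads, of which 74.2% to 80.7% lay on genes. The entry Rn45s, the precursor of ribosomal RNA, took 4.97% to 6.83% of all gene reads without RANKL and 10.9% to 13.5% in the groups given it. Scaling to the reads on genes without this entry, in place of all mapped reads, moved the median log2 fold change of all genes from 0.05 to 0.12 for the RANKL comparison and from -0.01 to 0.10 for R+LE against -R. At these depths Tfec had 151 to 462 reads per library, Tfeb 726 to 1357, Mitf 1096 to 2114, Tfe3 2007 to 3693 and Spi1 8559 to 11573. Markers of the labelled cells were present, with a summed level of 6458 to 7073 RPKM for 7 macrophage markers in -R, 2607 to 3351 in +R and 3632 to 4046 in R+LE. Lyz2 had the highest single value among the macrophage markers, 5571 RPKM. The 8 osteoclast markers summed to 43.2 to 44.8 RPKM in -R, 1866 to 2123 in +R and 329.2 to 380.0 in R+LE.

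Mitf, the factor mutated in osteopetrotic microphthalmia mice, lies on chromosome 6 of mm10 from 97807058 to 98021358 on the plus strand. It was higher in both +R libraries than in both -R libraries, and lower in both R+LE libraries than in any other. Its level was 9.73 and 9.73 RPKM in -R, 14.1 and 13.4 RPKM in +R, and 8.16 and 7.38 RPKM in R+LE. The groups therefore did not overlap in any of the 3 comparisons. Mitf rose 1.39-fold with RANKL, a log2 fold change of 0.48 (SE 0.13, 95% interval 0.19 to 0.76, adjusted p = 0.00873 in limma). With LE it fell to 0.579 of the +R level, a log2 fold change of -0.79 (SE 0.13, 95% interval -1.07 to -0.50, adjusted p = 0.00105 in limma). Against -R the R+LE level was 0.807-fold, with a log2 fold change of -0.31 that did not pass the test (adjusted p = 0.0891 in limma). The fall with LE passed under all 17 other ways of processing, from -0.86 to -0.72. The rise with RANKL did not pass without -R replicate 1 (0.48, adjusted p = 0.0512) or without +R replicate 1 (0.44, adjusted p = 0.0742). The study measured Mitf by qRT-PCR in RANKL cultures with and without LE, and took the outcome as backing for its gene set result. That result was drawn from these same libraries, so the direction of Mitf with LE is not taken as independent of it. Other cells rich in Mitf left little RNA here. Of 8 melanocyte markers, 5 were at 0 in all libraries, namely Tyrp1, Dct, Mlana, Slc45a2 and Oca2, and the 8 summed to at most 0.488 RPKM in any library. Of 6 mast cell markers, Kit alone had reads, at no more than 0.013 RPKM.

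Tfec lies on the same chromosome as Mitf, from 16833381 to 16898441 on the minus strand. It was the lowest member in -R, above only 26.5% of the genes tested. Its level was 2.90 and 3.36 RPKM in -R, 7.73 and 6.68 RPKM in +R, and 8.27 and 7.05 RPKM in R+LE. The groups with RANKL lay above -R in every library and overlapped each other. Tfec rose 2.12-fold with RANKL (log2 fold change 1.09, SE 0.15, 95% interval 0.77 to 1.40, adjusted p = 2.57e-05 in limma), the only member to pass 2-fold. This rise fell just short of 2-fold with a pseudocount of 1 (0.990), without -R replicate 1 (0.995) and without +R replicate 1 (0.987). With LE the log2 fold change was 0.08 with a 95% interval of -0.24 to 0.40 (adjusted p = 0.827 in limma), and its sign turned when +R replicate 2 (-0.02) or R+LE replicate 1 (-0.03) was left out. Against -R, Tfec was 2.25-fold higher in R+LE (log2 fold change 1.17, adjusted p = 1.97e-05 in limma).

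Tfe3, on the X chromosome from 7763943 to 7775202 on the plus strand, was the most abundant MiT factor in every library. Its level was 36.3 and 36.0 RPKM in -R, 22.6 and 23.0 RPKM in +R, and 22.0 and 22.4 RPKM in R+LE. Both groups given RANKL lay below -R. Tfe3 fell to 0.637 of its level with RANKL (log2 fold change -0.65, SE 0.13, 95% interval -0.93 to -0.37, adjusted p = 0.000934 in limma). The R+LE libraries lay just below the +R libraries without overlap, by a log2 fold change of -0.04 with a 95% interval of -0.32 to 0.24 (adjusted p = 0.915 in limma), and the sign was not stable to scaling. It was 0.01 with centring on the median, 0.03 with quantile normalization and 0.0035 with scaling to the reads on genes without Rn45s. Against -R, Tfe3 fell to 0.619 of its level in R+LE (log2 fold change -0.69, adjusted p = 0.000835 in limma).

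Tfeb, the master regulator of lysosome genes, lies on chromosome 17 from 47737037 to 47792416 on the plus strand. Its level was 19.9 and 16.6 RPKM in -R, 10.4 and 11.4 RPKM in +R, and 12.1 and 10.3 RPKM in R+LE. All libraries with RANKL lay below both -R libraries, and the R+LE libraries enclosed those of +R. Tfeb fell to 0.610 of its level with RANKL (log2 fold change -0.71, SE 0.15, 95% interval -1.03 to -0.40, adjusted p = 0.000976 in limma). With LE the log2 fold change was 0.03 with a 95% interval of -0.28 to 0.34 (adjusted p = 0.944 in limma), and it turned to -0.03 without +R replicate 1 and to -0.08 without R+LE replicate 1. Against -R, Tfeb fell to 0.623 of its level in R+LE (log2 fold change -0.68, adjusted p = 0.00198 in limma).

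Spi1 lies on chromosome 2 from 91096678 to 91115759 on the plus strand and was by far the most abundant member. Its level was 207.0 and 187.1 RPKM in -R, 260.3 and 252.6 RPKM in +R, and 211.4 and 194.1 RPKM in R+LE. In each condition it stood above at least 97.7% of the genes tested. Both +R libraries lay above all others, while -R and R+LE overlapped. The log2 fold change with RANKL was 0.38 (SE 0.16, 95% interval 0.04 to 0.72), which did not pass after adjustment (adjusted p = 0.0636 in limma). It passed under 9 of the 17 other ways of processing, among them leaving out either R+LE library (0.38 each, adjusted p = 0.0135 without replicate 1 and 0.0131 without replicate 2) and the fit with the replicate number as a block (0.38, adjusted p = 0.0399). With LE the log2 fold change was -0.34 with a 95% interval from -0.68 to just above 0 (adjusted p = 0.214 in limma), and no alternative made it pass. Against -R the R+LE level differed by a log2 fold change of 0.04 with a 95% interval of -0.30 to 0.38 (adjusted p = 0.871 in limma). Spi1 is also expressed by neutrophils and B cells, whose marker transcripts were lower in the groups given RANKL. The 8 neutrophil markers summed to 15.6 to 17.5 RPKM in -R and to 0.592 to 2.53 RPKM in the groups given RANKL, and the 6 B cell markers to 1.75 to 2.06 RPKM and at most 0.206 RPKM, and their part in the level of Spi1 was not tested. Only 2 of the 8 neutrophil markers passed the filter on low values, and their highest single value was 10.55 RPKM, for S100a8.

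**Figure D1:**
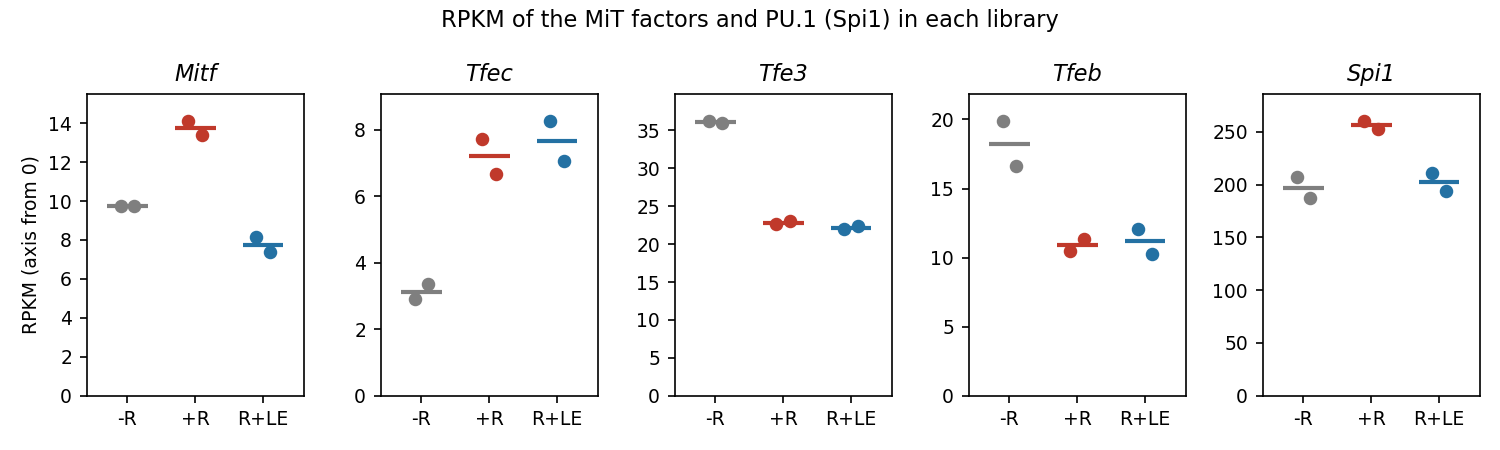
RPKM (vertical axes from 0, a separate scale for each gene) of Mitf, Tfec, Tfe3, Tfeb and Spi1 in the -R, +R and R+LE libraries, with a point for each library and a line at the mean of 2. Mitf peaks in +R at 13.4 to 14.1 RPKM and is lowest in R+LE, Tfec is high and Tfe3 and Tfeb are low in both groups given RANKL.

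Counted together, 4 of the 5 members passed the test for +R against -R, Mitf and Tfec upward and Tfe3 and Tfeb downward, where 45.4% of all genes tested passed, 23.9% upward and 21.5% downward. Only Tfec also reached 2-fold, though not under every alternative, as did 15.5% of all genes. The libraries of the 2 groups did not overlap for any of the 5 members, which was so for 75.2% of all genes. For R+LE against +R, Mitf alone passed, where 12.0% of all genes did, 5.19% upward and 6.86% downward, and no member reached 2-fold, against 3.23% of all genes. The libraries did not overlap for 3 of the 5 members, Mitf, Tfe3 and Spi1, each lower in R+LE, against 49.0% of all genes. For R+LE against -R, Tfec rose and Tfe3 and Tfeb fell, 3 of 5 where 34.3% of all genes passed, 15.3% upward and 19.0% downward, and only Tfec reached 2-fold, against 10.3% of all genes. Of the calls over all genes in this comparison 44.6% were upward, and 61.1% were with scaling to the reads on genes without Rn45s in place of all mapped reads. Here the libraries were apart for 4 of 5 members, against 65.5% of all genes. With 5 genes, counts this close to the shares of all genes are no result about the members. The 3 comparisons share libraries and so are not independent of each other. The 95% interval of the change of Mitf with LE ended below those of Tfec, Tfe3 and Tfeb and overlapped that of Spi1, and the differences between these changes were not tested.

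**Figure D2:**
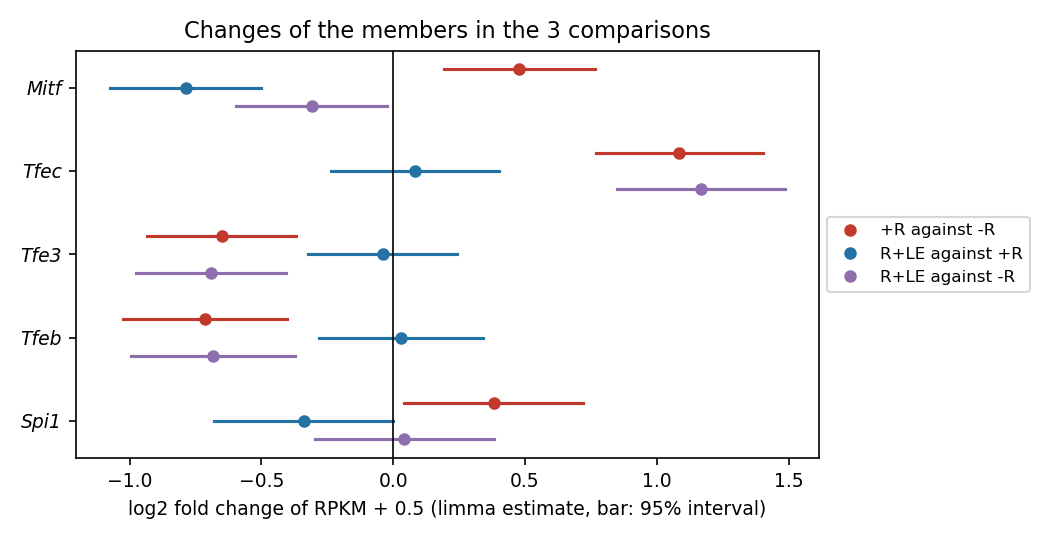
Log2 fold change of RPKM + 0.5 (horizontal axis) with its 95% interval from limma for the 5 members in each of the 3 comparisons between groups. With LE, Mitf lies at -0.79, and the intervals of Tfec, Tfe3 and Tfeb include 0.

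The order of the members also differed between conditions. In -R it ran Spi1, Tfe3, Tfeb, Mitf and Tfec, and each member was above the next in every library. In +R, Mitf passed Tfeb, by 1.26-fold in the means, and again each was above the next in every library. In R+LE, Tfeb stood above Mitf by 1.44-fold, and Mitf and Tfec were level with means of 7.77 ± 0.550 and 7.66 ± 0.861 RPKM (SD, n = 2 each) and overlapping libraries.

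Since the MiT factors pair with each other, their shares of the summed RPKM of the 4 genes were compared, which do not depend on the scaling of a library. The sum was 68.8 and 65.7 RPKM in -R, 54.9 and 54.4 RPKM in +R, and 50.5 and 47.1 RPKM in R+LE, so every library with RANKL lay below -R, and those with LE lay below those without. The share of Mitf was 14.1% and 14.8% without RANKL, 25.7% and 24.6% in the +R libraries, and 16.2% and 15.7% with LE. It was thus higher by 10.7 percentage points in +R than in -R, differed by -9.25 points between R+LE and +R, and was 1.44 points above -R in R+LE. The share of Tfec was 4.22% and 5.11% without RANKL, 14.1% and 12.3% in the +R libraries, and 16.4% and 15.0% with LE. The share of Tfe3 was 52.7% and 54.8% without RANKL, 41.2% and 42.2% in the +R libraries, and 43.6% and 47.5% with LE. Tfeb made up 28.9% and 25.3% of the sum without RANKL, 19.0% and 20.9% in the +R libraries, and 23.9% and 21.8% with LE. Tfe3 was therefore the largest part in all 6 libraries, and the shares of Mitf and Tfec were higher, and those of Tfe3 and Tfeb lower, in both groups given RANKL than in -R. For every share the libraries of the compared groups were apart, with an exact two-sided permutation p of 0.333, the smallest that 2 against 2 libraries allow.

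The ratio of Mitf to Tfe3, the pair known to overlap in osteoclasts, was 0.268 and 0.271 without RANKL, 0.624 and 0.583 in the +R libraries, and 0.371 and 0.330 with LE. Between +R and -R it differed by 0.334, and between R+LE and +R by -0.253 (exact permutation p = 0.333 each). The ratio of Tfec to Tfeb was 0.146 and 0.202 without RANKL, 0.740 and 0.588 in the +R libraries, and 0.685 and 0.686 with LE. It was higher in both groups given RANKL, and the 2 groups overlapped. Spi1 stood at 21.3 and 19.2 times Mitf without RANKL, 18.4 and 18.8 times in the +R libraries, and 25.9 and 26.3 times with LE. The R+LE libraries thus held the most Spi1 for each Mitf, with an exact permutation p of 0.333 against either group.

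**Figure D3:**
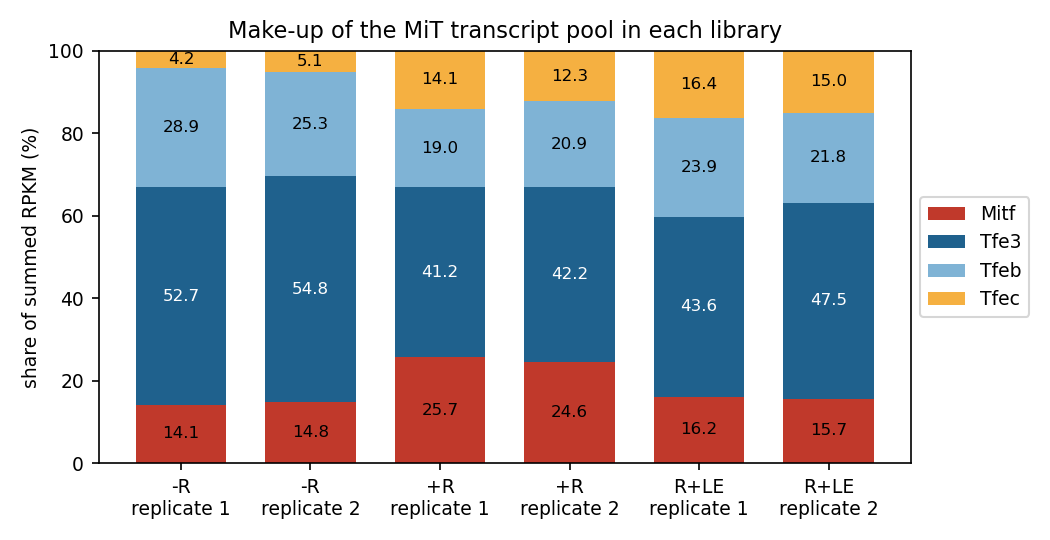
Share of Mitf, Tfe3, Tfeb and Tfec in their summed RPKM (vertical axis in percent, stacked to 100) in each of the 6 libraries. The Mitf part is widest in the +R libraries, at 25.7% and 24.6%, and Tfec widens from 4.22% and 5.11% in -R to between 12.3% and 16.4% with RANKL.

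The genes whose log2(RPKM + 0.5) was most like each member over the 6 libraries were read as a description of the pattern only, as libraries of a condition and depth are shared. For Mitf they were Ckb, St6galnac4 and Pgpep1, with Pearson r of 0.999, 0.998 and 0.993. Ckb, the creatine kinase of brain type, was at 359.8 and 333.1 RPKM in -R, 692.4 and 631.0 RPKM in +R, and 246.9 and 202.8 RPKM in R+LE, which is the order of Mitf with wider steps. The 3 closest genes of Tfec were Ccnb1, the mitotic cyclin, Hmmr and Il2rg, with r of 0.9998, 0.9998 and 0.9993. Ccnb1 was at 16.9 and 19.3 RPKM in -R, 47.9 and 40.6 RPKM in +R, and 52.3 and 43.7 RPKM in R+LE. Those of Tfe3 were Stard8, Gm11127 and Pfkfb4 (r = 0.999 each), those of Tfeb were Chmp6, 2610524H06Rik and Fbxw2 (r = 0.996, 0.994 and 0.993), and those of Spi1 were Mrpl9, Ptges2 and Zfp787 (r = 0.995, 0.994 and 0.993). An r above 0.95 was met by 75 genes for Mitf, 153 for Spi1, 359 for Tfeb, 552 for Tfec and 778 for Tfe3, so the pattern of Mitf was shared by the fewest genes and that of Tfe3 by the most.

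Of the targets, the osteoclast genes bound by MITF, TFE3 or PU.1 come first. The promoter windows of Acp5, Oscar and Clcn7 are printed since they hold the letters these factors are known to bind. Each is the RefSeq window of 300 nt in GRCm38.p6, the same chromosomes as mm10, that starts 250 bases before the first base of the counted transcript, at chr9:22130549-22130848 on the minus strand for Acp5, chr7:3616108-3616407 on the minus strand for Oscar and chr17:25133141-25133440 on the plus strand for Clcn7. Capitals mark CATGTG (the M-box core, CACATG on the other strand), TCACGTG (the core of the CLEAR element, which overlaps the E-box CACGTG) and GAGGAA (the PU.1 core, TTCCTC on the other strand), searched on both strands.
Acp5: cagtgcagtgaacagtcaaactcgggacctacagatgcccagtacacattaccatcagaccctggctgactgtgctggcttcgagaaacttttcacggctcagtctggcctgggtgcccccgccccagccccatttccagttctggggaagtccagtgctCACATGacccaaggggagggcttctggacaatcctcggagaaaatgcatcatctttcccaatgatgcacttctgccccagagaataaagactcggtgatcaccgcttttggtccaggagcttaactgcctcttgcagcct
Oscar: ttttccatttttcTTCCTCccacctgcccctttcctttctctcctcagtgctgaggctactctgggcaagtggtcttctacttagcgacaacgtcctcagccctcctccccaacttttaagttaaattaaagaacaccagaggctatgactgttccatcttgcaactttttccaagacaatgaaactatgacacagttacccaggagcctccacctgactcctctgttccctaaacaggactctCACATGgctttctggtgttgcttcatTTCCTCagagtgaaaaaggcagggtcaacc
Clcn7: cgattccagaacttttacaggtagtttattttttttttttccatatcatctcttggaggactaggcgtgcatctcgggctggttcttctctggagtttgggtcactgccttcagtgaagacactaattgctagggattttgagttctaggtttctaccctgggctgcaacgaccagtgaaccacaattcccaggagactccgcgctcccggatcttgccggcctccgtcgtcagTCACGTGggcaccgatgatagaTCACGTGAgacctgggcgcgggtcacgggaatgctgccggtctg
Counted from the start of the transcript, with bases before it negative, the M-box core lay at -90 in Acp5 and at -6 in Oscar, the PU.1 core at -237 and 20 in Oscar, and the E-box at -15 and 7 in Clcn7. Of 32851 windows of this length over all genes, 14.2% held the M-box core, 28.3% the PU.1 core, 7.15% the E-box and 3.77% the CLEAR core. Windows were found for 10 of 13 members and targets. Those of Mitf, Tfe3 and Tfeb, and of the targets Ostm1 and Gpnmb, held none of these letters. Neither did the windows of Acp5 at other starts, while that of Clcn7 at another start held the M-box core at -41. The window of Tfec held the PU.1 core once, at 33, and that of Ctsk held it at -233 and -58.

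Of the 8 osteoclast targets, 7 passed the filter. With RANKL 5 of these rose, 1 fell and 1 did not pass, and the median log2 fold change was 4.66 against 0.05 for all genes. Acp5, the tartrate-resistant phosphatase TRAP, was at 33.6 and 34.8 RPKM in -R, 964.1 and 794.9 RPKM in +R, and 184.7 and 146.9 RPKM in R+LE. Ctsk, the collagen-cleaving protease of osteoclasts, was at 0.216 and 0.182 RPKM in -R, 83.3 and 64.3 RPKM in +R, and 18.2 and 14.3 RPKM in R+LE. In both, the R+LE libraries lay between the other groups, far from either. Atp6v0d2, a proton pump subunit, was at 2.93 and 3.57 RPKM in -R, 176.1 and 147.4 RPKM in +R, and 36.5 and 28.5 RPKM in R+LE. Oscar, a costimulatory receptor, had no read in -R, 15.8 and 12.6 RPKM in +R, and 3.12 and 2.49 RPKM in R+LE. Against a limit of 3 reads per library in -R, Oscar was at least 274-fold higher in +R. With LE the log2 fold changes were -2.41 for Acp5, -2.15 for Ctsk, -2.30 for Atp6v0d2 and -2.15 for Oscar, each with an adjusted p of 1.11e-06 or less in limma. Acp5 shares 137 exon bases with a gene on the opposite strand, and reads were counted on both strands.

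Clcn7, the chloride-proton exchanger of the resorption lacuna and of lysosomes, had the group order of Mitf, with R+LE lowest. It was at 14.6 and 16.7 RPKM in -R, 32.2 and 28.7 RPKM in +R, and 14.1 and 13.6 RPKM in R+LE. It rose with RANKL by 0.94 on the log2 scale (adjusted p = 5.35e-05 in limma), fell with LE (-1.11, adjusted p = 7.26e-05), and R+LE lay just below -R (-0.17, adjusted p = 0.379). Ostm1, its partner subunit, was at 15.5 and 16.9 RPKM in -R, 19.0 and 15.7 RPKM in +R, and 14.9 and 12.1 RPKM in R+LE, and passed in no comparison. Gpnmb, a glycoprotein of the melanosome and of macrophages, fell with RANKL from 539.2 and 534.7 RPKM to 132.4 and 116.5 RPKM (log2 fold change -2.11, adjusted p = 5.56e-08 in limma). In R+LE it was at 162.8 and 140.4 RPKM (0.28 against +R, adjusted p = 0.338). Cdh1, the adhesion protein E-cadherin, was below the filter and not tested, at no more than 0.521 RPKM in any library. It was at 0.355 and 0.488 RPKM in -R, 0.148 and 0.081 RPKM in +R, and 0.380 and 0.521 RPKM in R+LE. The +R libraries, with 20 and 11 reads, were thus the lowest, opposite to the targets that rose with RANKL. With LE, 5 of the 7 targets fell, all by 2-fold or more, and the median was -2.15 against -0.05 for all genes. None of the 7 rose, also at an unadjusted p below 0.05 and in voom, but 1 did with quantile normalization. Against -R, 4 of the 7 stayed higher in R+LE and Gpnmb lower. The summed osteoclast markers, which share Acp5, Ctsk, Oscar and Atp6v0d2 with this list, moved alongside, and their part in the levels of the 5 factors was not tested.

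The lysosome and autophagy genes of the CLEAR network, known targets of TFEB and TFE3, mostly did not follow the osteoclast targets. Beside the counts of this and the other lists, 23.9% of all genes tested rose and 21.5% fell with RANKL. The shares were 5.19% and 6.86% with LE, and 15.3% and 19.0% for R+LE against -R. Of 36 genes tested, 19 fell and 3 rose with RANKL (Ctsf, Clcn7 and Atp6v1h), with a median log2 fold change of -0.47. The lysosomal proteases Ctsb and Ctsd had log2 fold changes of -2.32 and -1.82, the sphingolipid activator precursor Psap -1.78 and the galactosidase Gla -1.68. Of these, Ctsd stayed the most abundant, at 2485 and 2800.4 RPKM in -R, 812.6 and 687.8 RPKM in +R, and 1185 and 941.7 RPKM in R+LE. Ctsb shares 774 exon bases with a gene on the opposite strand and Ctsd 808 with a gene on the same strand. With LE, 5 fell and 2 rose, with a median of -0.07, but the number that rose depended on the scaling. The genes that rose became 5 with centring on the median and with voom, 7 with quantile normalization and 6 with scaling to the reads on genes without Rn45s, beside 6 that fell under each of these, and without a filter on low values 1 rose and 1 fell. Scarb2, the receptor that carries glucocerebrosidase to lysosomes, was at 32.4 and 35.1 RPKM in -R, 14.2 and 12.4 RPKM in +R, and 24.6 and 23.6 RPKM in R+LE, and so rose with LE (0.84, adjusted p = 0.000831 in limma). Naglu, which degrades heparan sulfate, was at 17.1 and 19.2 RPKM in +R and at 10.9 and 9.32 RPKM in R+LE (-0.81, adjusted p = 0.00191 in limma). Naglu just failed to pass without a filter on low values (adjusted p = 0.0504 in limma). The 5 genes that fell with LE became 2 when -R replicate 1, -R replicate 2, +R replicate 1 or R+LE replicate 2 was left out, and the 2 that rose became 6 without R+LE replicate 2 and 1 without any other library. Against -R, 25 of the 36 fell in R+LE and 1 rose, and 15 fell without -R replicate 2.

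The genes whose products act on the MiT proteins come next. A list of 19 genes covers mTORC1, the Rag GTPases, folliculin and their regulators, which control whether TFEB and TFE3 stay in the cytoplasm. Of these, 6 fell with RANKL and none rose, with a median of -0.27. At an unadjusted p below 0.05 and in voom none rose either. The 6 were Fnip2 (-1.24), a partner of folliculin, Lamtor4 (-0.77), Rraga (-0.68) and Rragc (-0.63), as well as Flcn and Mlst8. With LE none of the 19 passed in limma, where 2 had an unadjusted p below 0.05, both upward, and voom on the recovered reads called 2 higher and 1 lower. Against -R, 7 fell in R+LE, which became 3 without -R replicate 1 and 2 without -R replicate 2. With RANKL 45.4% of all genes tested passed, and 34.3% did for R+LE against -R. Counts this close to those shares are no result about the 19 genes. Of 12 kinases that phosphorylate the MiT factors, Cdk6 (0.68) and Cdk4 (0.63) rose with RANKL, and Mapk3 (-0.67), Gsk3b (-0.57), Map4k3 (-0.50) and Rps6ka1 fell. Over all genes 45.4% passed with RANKL, and a count this close to that share is no result about the kinases. The 4 that fell became 2 without -R replicate 2 or without +R replicate 2, and Cdk6 did not pass without -R replicate 1. With LE, Map4k3 fell further, from 9.0 and 8.9 RPKM in +R to 6.96 and 5.73 RPKM in R+LE (-0.47, adjusted p = 0.0461 in limma). It did not pass under 8 of the 17 alternatives, including the omission of any single library other than R+LE replicate 1.

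Spi1 stayed high while many of its known macrophage targets fell. Of 16 myeloid targets of PU.1, 13 fell with RANKL and none rose (1 upward at an unadjusted p below 0.05 in limma, none in voom), with a median log2 fold change of -1.21. The count that rose was 1 with only the compared groups and with centring on the median. It was 2 with quantile normalization and with scaling to the reads on genes without Rn45s. Fcgr1, the high-affinity IgG receptor, was at 68.3 and 69.2 RPKM in -R, 1.51 and 1.77 RPKM in +R, and 1.93 and 1.77 RPKM in R+LE, a log2 fold change with RANKL of -5.02 (adjusted p = 1.01e-12 in limma). The scavenger receptor Msr1 was at 483.0 and 508.1 RPKM in -R, 117.8 and 109.2 RPKM in +R, and 204.1 and 175.1 RPKM in R+LE. Msr1 thus fell with RANKL (-2.12) and rose with LE (0.73, adjusted p = 0.00696 in limma), as did Ncf1, a subunit of the phagocyte oxidase (-1.59 and 0.83), and Cd14, the lipopolysaccharide co-receptor (-1.46 and 0.62). Csf3r, the G-CSF receptor, fell with RANKL (-2.08) and had a log2 fold change of 0.23 with LE (adjusted p = 0.584 in limma). The mannose receptor Mrc1 fell with RANKL (-1.35) and fell further with LE (-0.97). In all, 4 of the 16 rose and 1 fell with LE, with a median of 0.23. Without a filter on low values 1 rose and none fell, and Msr1, Mrc1 and Cd14 did not pass. Msr1 also did not pass without +R replicate 2. Cd14 did not pass under 6 of the 17 alternatives, among them the omission of either -R library, of +R replicate 2 or of R+LE replicate 1. The summed macrophage markers, which share Csf1r, Itgam, Lyz2 and Fcgr1 with this list, ran in the same direction, and their part in these changes was not tested. Taken singly, 6 of the 7 macrophage markers fell with RANKL, and only 1 passed with LE, upward.

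Of the partners of PU.1, 8 of 11 passed the filter, and Irf4, Gata1 and Gata2 did not. With RANKL 6 fell and Egr2 rose, with a median of -1.14. Irf8, which binds DNA together with PU.1 and restrains osteoclast formation, was at 66.9 and 65.2 RPKM in -R, 4.07 and 5.21 RPKM in +R, and 7.88 and 6.75 RPKM in R+LE. It fell with RANKL (log2 fold change -3.70) and rose with LE (0.61, adjusted p = 0.0128 in limma). The rise did not pass without +R replicate 1, without R+LE replicate 1 or without a filter on low values. Cebpa, a myeloid lineage factor, had log2 fold changes of -2.19 with RANKL and 0.44 with LE (adjusted p = 0.0867 in limma for the latter). Cebpb fell with RANKL (-1.22) and rose with LE (0.69), though not without +R replicate 2. Cebpe rose with LE (0.57, adjusted p = 0.0473 in limma) but did not pass under 10 of 17 alternatives, and Jun fell with RANKL (-1.71). Egr2, a zinc finger factor induced downstream of PU.1, was at 2.52 and 2.27 RPKM in -R, 4.58 and 4.21 RPKM in +R, and 1.24 and 1.22 RPKM in R+LE. The order of the groups for Egr2 was that of Mitf, with log2 fold changes of 0.76 for RANKL and -1.50 for LE (adjusted p = 0.00109 and 1.46e-05 in limma). The 3 partners that rose with LE became 1 without either +R library and 5 with centring or quantile normalization.

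Other members of the ETS family, which bind a core like that of PU.1, and other E-box factors, which bind letters like those of the MiT factors, were set beside the 5 members. Of 16 ETS factors tested of 23, 7 fell and 3 rose with RANKL, with a median of -0.32. Etv5 (-2.22), Fli1 (-1.96), Ets2 (-1.67) and Elk3 (-1.28) fell most. Spic, the closest relative of PU.1 among those that rose, had 0.108 and 0.068 RPKM in -R, 1.09 and 1.14 RPKM in +R, and 0.353 and 0.653 RPKM in R+LE, against more than 187 RPKM for Spi1 in every library. With LE, Fli1 (0.77) and Elk3 (0.64) rose. Fli1 did not pass without a filter on low values, and Elk3 did not pass without +R replicate 2. Of 14 other E-box factors tested of 15, 7 rose and none fell with RANKL, with a median of 0.26. At an unadjusted p below 0.05 in limma 1 was downward. At the adjusted threshold 1 fell with a pseudocount of 1, with a minimum of 1 RPKM and with only the compared groups. The same was so with centring on the median, with a replicate block and with voom. Without a filter on low values 4 rose. Tfap4 was at 2.56 and 2.74 RPKM in -R, 6.92 and 6.52 RPKM in +R, and 4.95 and 5.24 RPKM in R+LE, a rise of 1.20 with RANKL and a log2 fold change of -0.37 with LE (adjusted p = 0.118 in limma). Myc (0.89), its antagonist Mxd1 (0.70) and Srebf2, which drives cholesterol synthesis (0.58), rose with RANKL too, and Mxd1 did not pass without -R replicate 1 or +R replicate 1. With LE none of the 14 passed in limma, where 4 had an unadjusted p below 0.05, all downward, and voom called 1 of them lower.

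**Figure D4:**
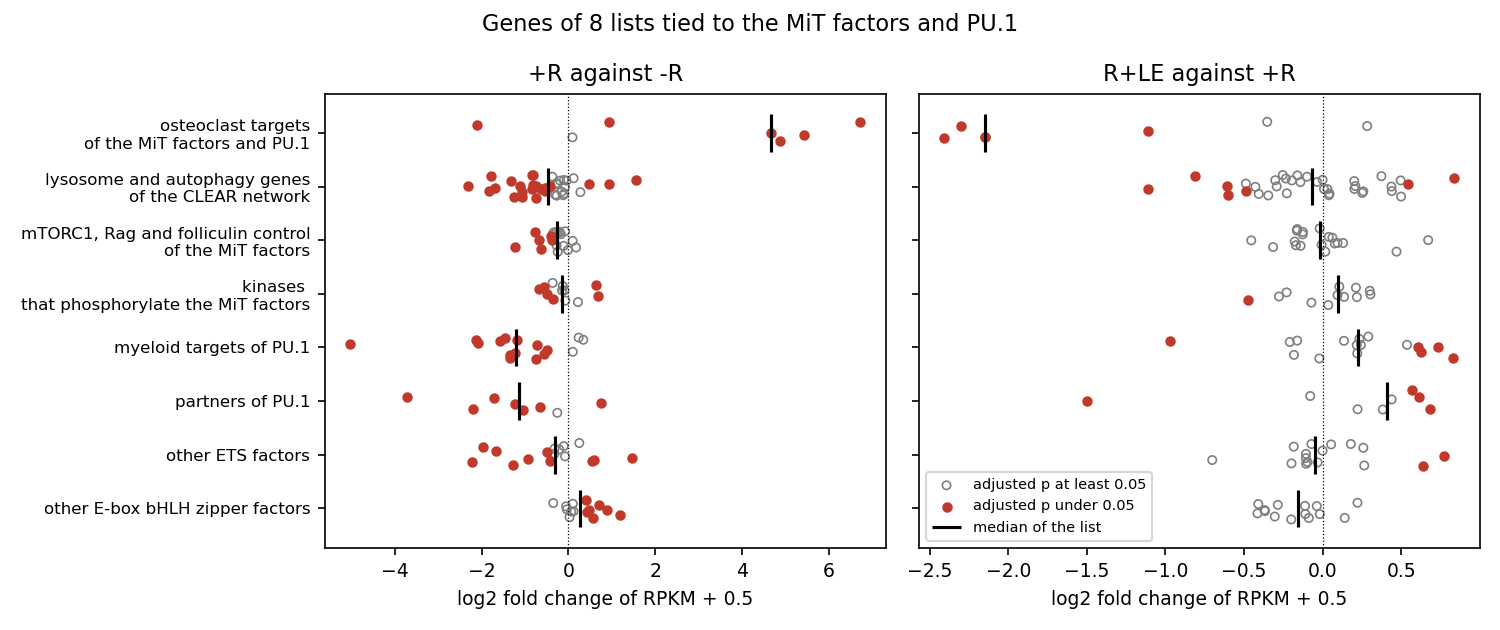
Log2 fold change of RPKM + 0.5 (horizontal axes) for the tested genes of 8 lists, with the effect of RANKL on the left and that of LE on the right, filled points for genes with an adjusted p below 0.05 and a black line at the median of each list. The osteoclast targets reach a median of 4.66 with RANKL and -2.15 with LE, while the myeloid targets of PU.1 have medians of -1.21 and 0.23.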

How the data were processed

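The authors sequenced 6 RNA-seq libraries of BMMs, 2 each of -R, +R and R+LE, with paired reads of 100 bp. According to the methods of the study the reads were aligned to mm10 with TopHat, whereas the submitters' processing notes list HISAT2, HOMER and DESeq2, with versions not given in the sources used here. The authors counted reads on the exons of 1 transcript per gene with HOMER, on both strands, and deposited them as RPKM per gene under column titles that say FPKM. All 26 gene symbols that a spreadsheet had turned into dates were restored from transcript identifiers. Whole reads were recovered from RPKM and transcript length (100% of the values checked), which gave the depth. Precision limits from these reads cover counting error only. Nothing says that the 2 libraries of a group came from separate cultures or animals, so p-values may measure technical spread.

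Members were matched by symbol. Genes whose mean reached 0.5 RPKM were tested with limma version 3.58.1 in R version 4.3.3 on log2(RPKM + 0.5), with all 6 libraries in the fit, a variance trend and Benjamini-Hochberg adjustment over 11595 genes. Shares were compared by an exact permutation test over libraries. The members and the gene lists were chosen with earlier results of these data known. From each of 8 lists, up to 4 genes with the largest change that passed in +R against -R or in R+LE against +R were named, beside all osteoclast targets and the 3 genes most like each member, which gave 45 genes from the lists. Genes named without a value were chosen after their values were seen. Of those 45, 13 share exon bases with another gene in GENCODE, 12 of them on the opposite strand. Alternatives were pseudocounts of 0.1 and 1, no filter or a minimum of 1 RPKM, a fit of the compared groups alone, no variance trend, centring, quantile normalization, a replicate block, voom on recovered reads and each library left out, and, chosen after seeing the data, scaling to gene reads without Rn45s. Promoter windows came from RefSeq. Tables and figures were made with Python version 3.11.15, numpy 2.4.6, pandas 2.3.3 and matplotlib 3.10.9. Some genes of the lists are not reported here by name.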

Additional observations from a re-analysis of the deposited data

How the results depend on the processing

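Of the values of the 5 members under the alternatives, 235 kept direction and side of the threshold, 9 passed that had not, 2 no longer passed and 9 changed sign. Mitf for +R against -R did not pass without -R replicate 1 or without +R replicate 1, within a range of 0.44 to 0.51 over the libraries left out. Spi1 for +R against -R passed at 0.38 without a variance trend, with only the compared groups and with voom on recovered reads, at 0.38 when centred on the median, at 0.50 with quantile normalization, at 0.46 with scaling to reads on genes without Rn45s, and when either R+LE library was left out, within a range of 0.31 to 0.45. The small changes for R+LE against +R turned sign for Tfe3, at 0.011 centred on the median, 0.026 with quantile normalization and 0.0035 with scaling to reads on genes without Rn45s. Over the libraries left out they ranged from -0.081 to 0.14 for Tfeb and from -0.026 to 0.19 for Tfec, and those of Spi1 between R+LE and -R from -0.031 to 0.11. The same held for RANKL in Ostm1, from -0.040 to 0.23, and Naglu, from -0.22 to 0.064, and for LE in Gla, from -0.092 to 0.17, Fnip2, from -0.26 to 0.010, Rraga, from -0.10 to 0.36, and Rragc, from -0.089 to 0.12. All share differences kept their direction.

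Over all genes, 1397 passed for R+LE against +R at an adjusted p alone, and 581 of 18427 did without a filter on low values. For R+LE against -R, 3974 passed, with 2445 without -R replicate 1 and 2585 without -R replicate 2, in a range of 2445 to 4053 over the libraries left out. Of those calls 44.6% were higher, against 53.1% with centring and 61.1% with scaling to reads on genes without Rn45s.

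Replicates of the same number did not deviate together throughout, with correlations of -0.05 between -R and +R, 0.11 between -R and R+LE and 0.25 between +R and R+LE, so the numbers were not taken as pairs. With the replicate number as a block, 5746 genes passed at an adjusted p alone with RANKL, 1792 with LE and 4488 between R+LE and -R, against 5262, 1397 and 3974 without it, and Spi1 for +R against -R passed at 0.38 (adjusted p = 0.0399 in limma), while no other call of a member changed. With 2 libraries per group, the exact permutation tests of shares and ratios could not give a p below 0.333.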
